A study of Macaca fascicularis with 9 samples.

Results

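Oligodendrocyte cluster 0 was a group of 15849 nuclei from the thalamus of 9 cynomolgus monkeys. Its members were the nuclei that the authors' deposited annotation named oligodendrocytes and placed in cluster 0 of a clustering on integrated data. They made up 25.7% of the 61578 oligodendrocyte nuclei, which the annotation spread over 7 clusters, and 19.8% of all 79994 nuclei. The study measured RNA in single sorted nuclei of frozen thalamus, counted as unique molecular identifiers (UMIs, 1 per captured RNA molecule). It compared 3 ways of treating female animals, with 3 animals in each group. The saline group received 4 intravenous doses of saline, 1 every 2 weeks. The OTV group received OTV:MALAT1 intravenously on the same schedule at 30 mpk. OTV stands for a transport vehicle that carries an antisense oligonucleotide against the nuclear RNA MALAT1. The ASO group was given MALAT1 antisense oligonucleotide intrathecally, as 1 dose of 4 mg. Animals were sampled 2 weeks later in every group, counted from the final dose. The study had no intrathecal saline group, so the antisense treatment, its route and the number of doses cannot be told apart in the ASO group. None of the 3 groups received the vehicle without the MALAT1 oligonucleotide, so vehicle and oligonucleotide cannot be told apart in the OTV group. The OTV and ASO groups differ in vehicle, route, dose and number of doses at once. The labels name no batch or processing date, and a batch that follows the groups cannot be told apart from treatment.

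Oligodendrocytes wrap axons in myelin, a compacted membrane built from a few abundant proteins and lipids, and they supply axons with metabolic substrates. In the thalamus they myelinate fibres that link it with the cortex. Mature oligodendrocytes exist in several transcriptional states that share the myelin genes and differ in adhesion, channel and signalling genes. MALAT1 is an abundant long noncoding RNA kept in the nucleus, at nuclear speckles, where splicing factors gather. A gapmer antisense oligonucleotide pairs with its target RNA, which RNase H then cleaves.

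Cluster 0 held 2173, 2254 and 327 nuclei in the 3 saline animals, 2583, 3145 and 2512 in the ASO animals and 656, 776 and 1423 in the OTV animals. It took 25.2 to 35.5% of the oligodendrocyte nuclei in 8 animals and 9.06% in OTV animal 1, where cluster 8 took 22.9% against 0.0178 to 3.82% elsewhere. The summed UMIs of cluster 0, in units of 1e6, ran from 1.45 in saline animal 3 to 25.2 in ASO animal 2. The median nucleus had 6026 UMIs, close to the 6012 of the other oligodendrocyte nuclei. Median doublet scores were highest in OTV animals 1 and 2 (0.0211 and 0.0569), against 0.00356 in OTV animal 3 and at most 0.00245 in the other 6. The other oligodendrocyte nuclei of OTV animals 1, 2 and 3 had lower medians, at 0.00194, 0.00273 and 0.000292. Only 30 of 15818 cluster 0 barcodes occurred in more than 1 animal.

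The label oligodendrocyte held for cluster 0. The 7 oligodendrocyte markers measured here, among them the myelin genes MOBP, MOG and MAG, summed to 5466 to 9541 CPM (UMIs of a gene per 1e6 UMIs) per animal, against 5713 to 9402 in the other oligodendrocyte nuclei. Markers of other cell types were low but not at 0. Astrocyte markers summed to 124 to 244 CPM against 6476 to 18215 in astrocytes, and microglial markers to 16.1 to 33.2 CPM against 3931 to 5770. Markers of oligodendrocyte precursors (OPCs) summed to 178 to 667 CPM against 11030 to 15740 in those cells. Neuronal markers summed to 66.9 to 547 CPM, against 2220 to 4809 in neurons, and were lower in cluster 0 than in the other oligodendrocyte nuclei in 9 of 9 animals.

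The genes given as markers of cluster 0, SMIM2, DTHD1, LAMC3 and TMTC1, were not particular to cluster 0. TMTC1, which adds O-mannose to cadherins in the endoplasmic reticulum, had a median over animals of 923 CPM in cluster 0, 1107 in cluster 1 and 1042 in cluster 2. DTHD1, a gene for a death domain protein, had a median of 264 CPM in cluster 0, 383 in cluster 1 and 368 in cluster 2, and was lower in cluster 0 than in either in 9 of 9 animals. SMIM2, which encodes a small membrane protein, stood at 107, 112 and 119 CPM in clusters 0, 1 and 2. The medians of these 3 genes were thus no lower in clusters 1 and 2, while in cluster 10 they were low, at 115 CPM for TMTC1, 17.5 for DTHD1 and 31.6 for SMIM2. Only LAMC3, the laminin gamma 3 chain of basement membranes, was higher in cluster 0 than in the other oligodendrocyte nuclei in 9 of 9 animals. Its cluster 0 values were 55.4, 102 and 27.0 CPM in the saline animals, 93.6, 41.9 and 106 in the ASO animals and 72.0, 119 and 11.8 in the OTV animals. Against the other oligodendrocyte nuclei of the same animal it was higher by a median of 0.43 on the log2(CPM + 1) scale, with a range of 0.24 to 0.71. The animals differed from each other more than the clusters did, since LAMC3 spanned 11.8 to 119 CPM over animals. LAMC3 had its highest median in cluster 0 among the oligodendrocyte clusters (72.0 CPM, with 65.0 in cluster 8 and 48.6 in cluster 3), but it was higher than in cluster 3 in only 6 of 9 animals. Outside the oligodendrocytes, clusters 15 and 16, which carry no cell type name in the annotation, held higher levels of some of these genes. Cluster 15 had medians of 390 CPM of LAMC3 and 1071 of TMTC1 over 4 animals, and cluster 16 had 1726 CPM of DTHD1 over 2 animals. Neurons held 414 CPM of TMTC1.

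**Figure D1:**
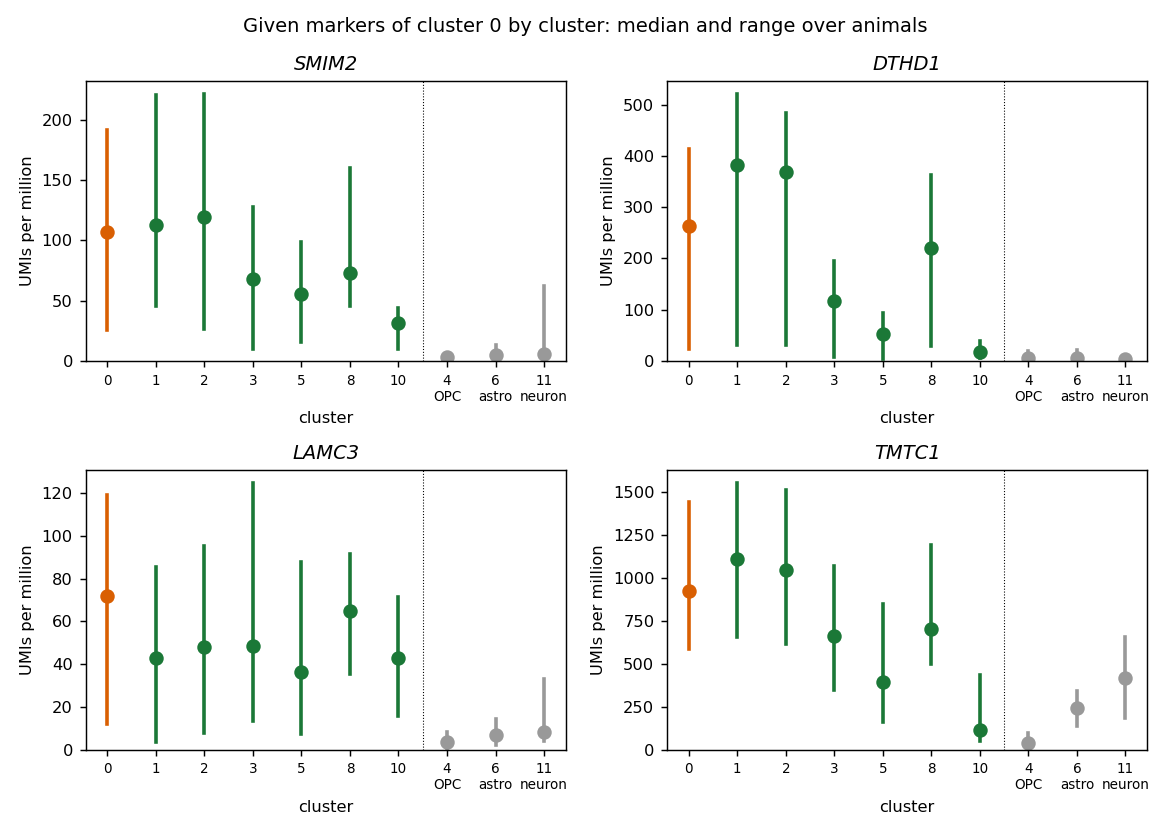
Levels of the 4 given marker genes in CPM, in the 7 oligodendrocyte clusters (left of the dotted line, cluster 0 in orange) and in OPCs, astrocytes and neurons (grey). Points are medians over animals and bars run from the lowest to the highest animal. DTHD1 is higher in clusters 1 and 2 than in cluster 0, and LAMC3 has its highest median, 72.0 CPM, in cluster 0.

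Each of the 4 genes was detected in more cluster 0 nuclei than myeloid nuclei after thinning every nucleus to 1000 UMIs. Over animals, a median of 55.4% of cluster 0 nuclei had a TMTC1 UMI (90.2% unthinned), 21.9% a DTHD1 UMI (57.1% unthinned), 10.4% a SMIM2 UMI (34.2% unthinned) and 6.1% a LAMC3 UMI (36.4% unthinned). In the myeloid nuclei, which should lack these genes, the thinned shares were 3.75%, 1.53%, 0.309% and 0.652% in the same order. In cluster 1 they were 62.9%, 29.5%, 9.65% and 4.19%, and in cluster 2 they were 53.0%, 27.2%, 9.80% and 4.33%. Detection was thus not particular to cluster 0.

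No gene set cluster 0 apart by being much higher. The comparison with the other oligodendrocyte nuclei is a description without a test, because the clusters were made from these same genes. Of 8894 genes compared within each animal, 0 (0%) were at least 2-fold higher in cluster 0 in 9 of 9 animals, and 5 (0.0562%) were at least 2-fold lower. Differences of any size with the same sign in 9 of 9 animals were higher for 186 genes (2.09%) and lower for 289 (3.25%). The median over all genes compared was 0.00 on the log2 scale, and 1 median lay above 0.5 while 135 lay below -0.5. Without saline animal 3 the 5 genes became 14, and without ASO animal 3 they became 8.

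Of the 5 genes at least 2-fold lower, 4 had a symbol. PCDH7, a protocadherin of cell adhesion, had 103, 84.9 and 274 CPM in the saline animals' cluster 0, 16.6, 11.3 and 55.0 in the ASO animals and 60.4, 102 and 52.2 in the OTV animals. In the other oligodendrocyte nuclei the values were 388, 291 and 574, then 144, 92.1 and 218, then 220, 246 and 164. Within every animal cluster 0 was the lower, by a median of -1.85 on the log2 scale (range -3.04 to -1.07). THSD7B, a thrombospondin repeat protein, differed by a median of -2.41 (range -3.39 to -1.41). SDK2, an immunoglobulin family adhesion protein of synaptic layers, differed by -1.72 (range -2.65 to -1.05), and RELL1 by -1.48 (range -1.90 to -1.09).

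These low genes came from different neighbours. PCDH7 was high in clusters 1 and 2 (375 and 286 CPM) and low in clusters 3 and 10 (23.8 and 13.4 CPM), with cluster 0 at 60.4 CPM. THSD7B, SDK2 and RELL1 did the reverse, with 503, 309 and 48.4 CPM in cluster 10. In clusters 1 and 2 their medians were close to those of cluster 0. Against cluster 1 alone the median difference was 0.12 for THSD7B, 0.35 for SDK2 and 0.50 for RELL1. The sign varied, with cluster 0 higher in 6, 7 and 6 of 9 animals in that order.

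For most genes that differed between 2 pooled groups of oligodendrocyte clusters, cluster 0 lay between them. The pools and the comparison were chosen after the values were seen. Between the pooled clusters 1 and 2 and the pooled clusters 3, 5 and 10, 123 of 9192 genes (1.34%) differed at least 2-fold in 9 of 9 animals. For 91 of the 123 (74.0%) the level of cluster 0 lay between both groups in 9 of 9 animals. On a log2 scale where 0 is clusters 1 and 2 and 1 is clusters 3, 5 and 10, the median position of cluster 0 was 0.379, and 98 of the 123 genes were nearer to clusters 1 and 2. Per animal the median position ran from 0.223 in ASO animal 3 to 0.458 in OTV animal 3. Cluster 8 belonged to neither group, and its position was not counted. Its medians of KANK1, PCDH7 and RGS6 (105, 192 and 42.9 CPM) also lay between both groups, so a middle level of these genes was not particular to cluster 0.

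Genes with this graded pattern, chosen after their values were seen, included adhesion, scaffold and metabolic genes. CNTN1, a contactin of axon and glia contact, had 1576 CPM in clusters 1 and 2, 647 in cluster 0 and 105 in clusters 3, 5 and 10. ZFPM2, a cofactor of GATA transcription factors, had 402, 162 and 19.3 CPM in the same order. KANK1, a cytoskeletal adaptor, had 289, 45.4 and 10.8 CPM. CDH7, a cadherin, had 106, 29.7 and 3.92 CPM. In the other direction, GSN, the actin-severing gelsolin, had 41.5, 222 and 706 CPM. ENPP6, a choline phosphodiesterase known from newly forming oligodendrocytes, had 25.9, 83.0 and 216 CPM. Over the 6 compared genes of committed and newly formed oligodendrocytes the median difference of cluster 0 from the other oligodendrocyte nuclei was -0.04, with 0 higher and 1 lower in 9 of 9 animals. HS3ST5, a heparan sulfate sulfotransferase that followed the direction of GSN, had 35.1, 97.8 and 486 CPM.

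**Figure D2:**
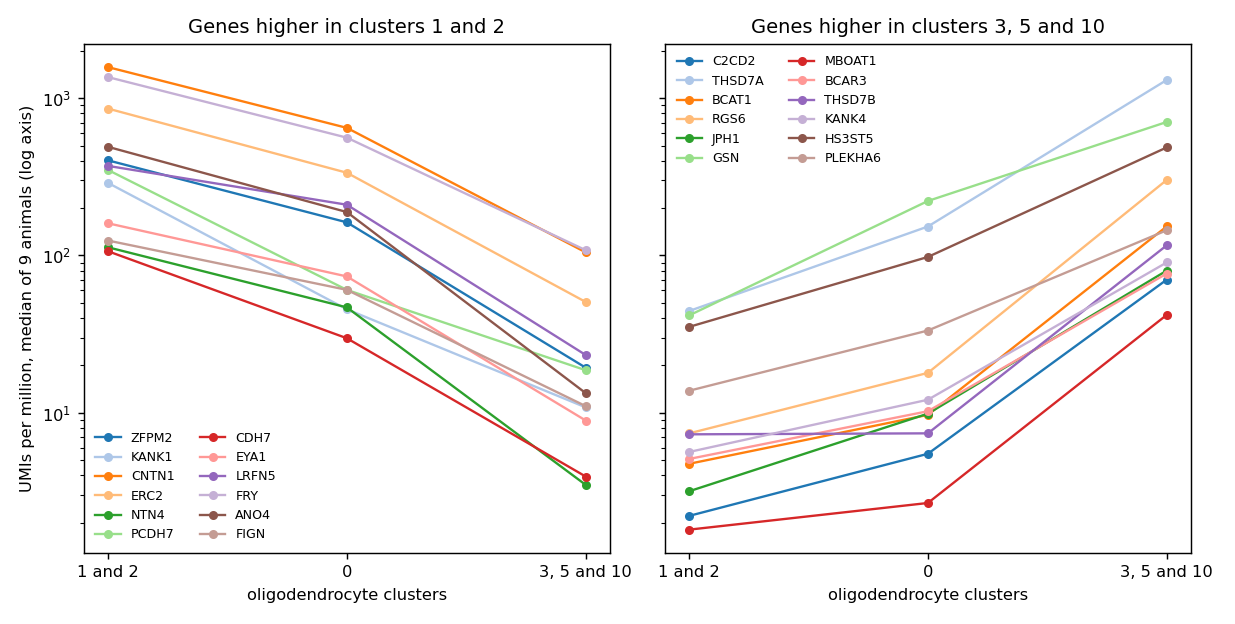
CPM (log axis, median of 9 animals) in the pooled clusters 1 and 2, in cluster 0 and in the pooled clusters 3, 5 and 10, for the 12 genes with the largest difference in each direction among those at least 2-fold different in 9 of 9 animals. Lines join the 3 values of a gene, and most lines pass through cluster 0 at a middle level, as for CNTN1 at 1576, 647 and 105.

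Set against single clusters, cluster 0 had the fewest such differences from clusters 2, 3 and 8 and the most from cluster 10. At least 2-fold differences in every animal, in either direction, were found for 10 of 8902 genes against cluster 1 (0.112%), 5 of 9015 against cluster 2 (0.0555%) and 6 of 9109 against cluster 3 (0.0659%). The counts were 56 of 9150 against cluster 5 (0.612%), 0 of 9543 against cluster 8 (0%) and 225 of 9142 against cluster 10 (2.46%), the last 2 over 8 animals. Cluster 8 was shallow, with a median of 3081.5 UMIs per nucleus, and held 0.755% of the oligodendrocyte nuclei of OTV animal 2. Against it the KANK1 difference ran from -1.82 to 4.94 over animals. A count that asks for 2-fold in every animal falls with such spread, so a low count does not by itself show closeness. The genes named next were also chosen after their values were seen. Against cluster 1, FLRT2, a repulsive guidance and adhesion protein, was higher in cluster 0 by a median of 1.98, and KANK1 was lower by -2.80. Against cluster 2, GSN was higher by 1.95 and ENPP6 by 1.51, and KANK1 was lower by -2.24. Against cluster 3, LRFN5, a synaptic adhesion protein, was higher by 1.99 and SFRP1, a secreted Wnt inhibitor, by 1.91, while BCAT1, a branched-chain amino acid transaminase, was lower by -2.23.

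UNC13B, a priming factor of vesicle release, was chosen after its values were seen. Of 10296 genes, it was the single gene (0.00971%) with its highest level in cluster 0 among the 7 clusters in every animal, and 0 genes (0%) had their lowest level there in every animal. Cluster 0 held 227, 359 and 329 CPM in the saline animals, 114, 142 and 121 in the ASO animals and 230, 243 and 178 in the OTV animals. The other oligodendrocyte nuclei held 162, 278 and 242, then 80.2, 99.2 and 104, then 178, 195 and 128. The difference was small, with a median of 0.44 on the log2 scale (range 0.22 to 0.51). Its median was smallest against cluster 2, at 0.13, and against cluster 1 its lowest value was 0.0074. Also chosen after their values were seen, 2 further genes were higher than in the pooled other oligodendrocyte nuclei. CORIN, a membrane protease that activates natriuretic peptide, was higher by 0.44 (range 0.11 to 0.75) and TRPM1, a cation channel, by 0.39 (range 0.23 to 0.72). CORIN was not highest in cluster 0 in every animal, being lower than in cluster 3 in 2 of 9 animals.

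The gene lists showed little that set cluster 0 apart at the level of oligodendrocyte identity. The median difference was 0.03 over the myelin list, 0.00 over the lineage transcription factors and 0.02 over the nuclear speckle factors. Within the myelin list, NFASC, the neurofascin of the node and paranode, was lower in 9 of 9 animals at a median of -0.19. Of 14 lineage factors compared, 1 was higher and 1 lower in 9 of 9 animals, the lower one being HEY2, a Notch target, at -0.28. The median difference was -0.01 over the potassium and glutamate list and -0.03 over the O-mannosylation and cadherin list. Single members of these lists lay further out. Of 20 potassium and glutamate genes compared, 2 were higher and 3 lower in 9 of 9 animals, with KCNQ5, a potassium channel, at -0.75. Over all genes compared, 2.09% were higher and 3.25% lower in 9 of 9. Of 16 O-mannosylation and cadherin genes, 0 were higher and 2 lower in 9 of 9 animals, the cadherins CDH7 at -1.19 and CDH10 at -0.49. SGK1, a kinase induced by glucocorticoids, was higher by 0.13 and PFKFB3, a regulator of glycolysis, by 0.19, both in 9 of 9. Of 3 neuronal markers compared, 0 were higher and 2 lower in 9 of 9 animals, with medians from -1.16 to 0.09. The lowest was SYT1, a neuronal vesicle protein, at -1.16. It was graded like the genes above, with 178 CPM in clusters 1 and 2, 44.4 in cluster 0 and 26.4 in clusters 3, 5 and 10. The part of neuronal RNA in the cluster differences was not tested.

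MALAT1, the targeted RNA, was lower in cluster 0 of both treated groups. Its share of cluster 0 UMIs was 6.33, 6.86 and 6.09% in the saline animals, 4.33, 4.13 and 5.64% in the ASO animals and 4.03, 3.59 and 3.19% in the OTV animals. All treated animals lay below all saline animals, and all OTV animals lay below all ASO animals. The means were 6.43% ± 0.395 (SD, n = 3), 4.70% ± 0.824 and 3.6% ± 0.420, so that the ASO group stood at 73.1% and the OTV group at 56.0% of saline. Exact permutation of all 9 animals among the groups gave p = 0.00357, the smallest this design allows. Each pair of groups gave an exact two-sided p of 0.1, also the smallest possible with 3 animals against 3. Counting error was small beside the animals' spread, as the widest 95% Wilson interval spanned 0.0390 percentage points on each side of its value.

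In the fit across all genes, the lower MALAT1 level passed the threshold for OTV and missed it for ASO. The log2 fold change was -0.79 (SE 0.14) in OTV against saline, with a Benjamini-Hochberg adjusted p of 0.0057 from the edgeR quasi-likelihood test. It was -0.47 (SE 0.14) in ASO against saline, with an edgeR adjusted p of 0.258, and -0.32 (SE 0.14) in OTV against ASO, with an edgeR adjusted p of 0.136. The 3 comparisons share animals and are not independent of each other.

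The MALAT1 levels of cluster 0 were close to those of the other oligodendrocyte nuclei in each group. There the shares were 6.44, 6.87 and 6.65% in saline, 4.86, 4.25 and 5.75% in ASO and 3.94, 3.42 and 2.98% in OTV. Cluster 0 stood at 91.6 to 99.9% of the others in the saline animals, 88.9 to 98.1% in the ASO animals and 102 to 107% in the OTV animals. In each of the 3 OTV animals cluster 0 thus kept slightly more MALAT1 than the other oligodendrocyte nuclei, and in the other 6 slightly less. The difference in response was 0.14 on the log2 scale for OTV against saline, with an edgeR adjusted p of 0.802, so it did not pass the test.

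Nuclei of the same animal varied in MALAT1. After thinning to 1000 UMIs, and with the variance that counting alone gives subtracted, the coefficient of variation of the MALAT1 share was 0.184, 0.168 and 0.180 in the saline animals, 0.397, 0.183 and 0.194 in the ASO animals and 0.228, 0.208 and 0.247 in the OTV animals. ASO animal 1 stood apart, and its nuclei ran from 1.69% at the 10th percentile to 6.42% at the 90th. Over the 3 groups the exact permutation p was 0.471, and without ASO animal 1 it was 0.0214.

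**Figure D3:**
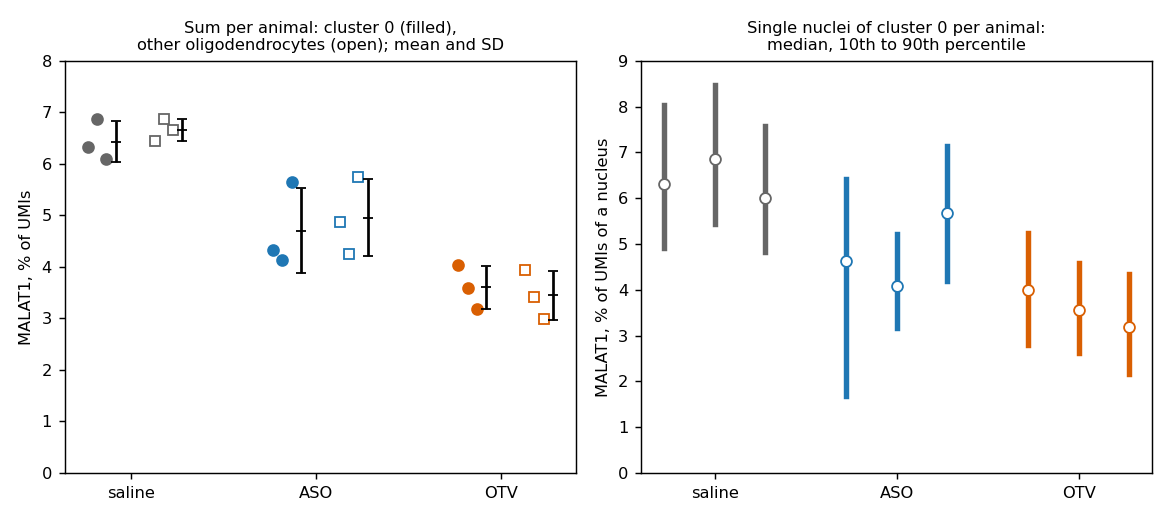
Left, MALAT1 as a percentage of summed UMIs in cluster 0 (filled) and in the other oligodendrocyte nuclei (open), 1 point per animal, with mean and SD. Right, MALAT1 as a percentage of the UMIs of single cluster 0 nuclei, with the median and the 10th to 90th percentile of each animal. The OTV animals lie between 3.19 and 4.03% in cluster 0, below the saline animals at 6.09 to 6.86%.

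For intrathecal ASO against saline, 46 of 16062 genes tested (0.286%) passed an edgeR adjusted p of 0.05, 21 higher and 25 lower, and 31 of them had a symbol. At an unadjusted p under 0.05 there were 1684 (10.5%). The count depended on the test and on single animals. DESeq2 called 374, and without the filter on low counts edgeR called 78. Only the 6 compared animals gave 24, and thinning to equal totals gave 16. It was 6 without ASO animal 1, 13 without ASO animal 3, 10 without saline animal 2 and 27 without saline animal 1.

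Among the ASO rises, GIPR was the one of 16 named genes that passed in each of the 15 alternatives run. GIPR, the receptor of the incretin GIP, had 0.740, 1.05 and 0 CPM in the saline animals, 68.0, 60.1 and 35.9 in the ASO animals and 0.830, 1.34 and 2.40 in the OTV animals. The ASO animals stood far above the other 6. The fitted log2 fold change was 5.99 (SE 0.44), with an edgeR adjusted p of 0.000603, and its size depends on the prior count since saline held few UMIs. KIF6, a kinesin motor, rose from 202, 188 and 230 CPM in saline to 371, 363 and 417 in ASO. Its log2 fold change was 0.88 (SE 0.12), with an edgeR adjusted p of 0.0222 that was lost in 6 of 15 alternatives. SVEP1, an extracellular matrix protein, rose from 59.7, 102 and 56.0 CPM to 439, 210 and 440, by 2.28 (SE 0.32) with an edgeR adjusted p of 0.0282 that was lost in 7 of 15 alternatives. It also rose in OTV, at 182, 152 and 195 CPM, by 1.3 (SE 0.31) with an edgeR adjusted p of 0.0227. The other rises named by the rule were GPN2 (1.17), AGT, the precursor of angiotensin (2.71), RSU1 (0.70), the DNA repair gene BRCA1 (1.08) and SGCB, a sarcoglycan (1.12), all as log2 fold changes.

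Among the ASO falls, PCSK6, a convertase that activates secreted precursors, went from 209, 148 and 232 CPM in saline to 46.3, 66.6 and 47.0 in ASO, while OTV held 236, 256 and 190. The ASO animals lay below all others, at a log2 fold change of -1.89 (SE 0.21) and an edgeR adjusted p of 0.0101. FAM186A, BTBD19 and FSTL1 fell by 3.17, 3.47 and 3.61 on the log2 scale. The remaining named falls, ND5, ND3 and COX1, are encoded by the mitochondrial genome and are described with it. UNC13B fell in ASO by 1.29 (SE 0.18), with an edgeR adjusted p of 0.0227 that was lost in 5 of 15 alternatives, where it reached 0.113.

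Many genes of cluster 0 differed between the OTV and the saline animals. Against saline, 2503 of 16062 genes (15.6%) passed, 1022 higher and 1481 lower. At an unadjusted p under 0.05 there were 4854 (30.2%), and DESeq2 called 2873, 1208 higher and 1665 lower. The edgeR count was 1406 without saline animal 1, 1431 without saline animal 2 and 1545 without OTV animal 3. It was 1126 with the animals thinned to equal totals and 1626 with only the 6 compared animals. It was 2422 without saline animal 3, the smallest library. Of the 53 genes called here whose alternatives were followed, 28 kept the call in all 15 alternatives. The 16 genes the rule took for their small adjusted p were among the 28.

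HID1, a factor of secretory granule formation, was among the OTV rises. It had 40.7, 38.0 and 38.0 CPM in saline, 47.3, 40.1 and 51.1 in ASO and 122, 109 and 124 in OTV. The OTV animals lay above all others, at a log2 fold change of 1.64 (SE 0.12) and an edgeR adjusted p of 0.000319. KAT2A, a histone acetyltransferase, rose from 22.2, 25.9 and 28.4 CPM to 86.7, 68.5 and 86.5, by 1.72 (SE 0.15) with an edgeR adjusted p of 0.000469. SOX2, a transcription factor of progenitors that is also present in glia, rose from 37.7, 37.0 and 45.0 CPM to 96.0, 87.3 and 99.0, by 1.3 (SE 0.13) with an edgeR adjusted p of 0.000524. The ASO animals, at 44.9, 37.8 and 34.9 CPM of SOX2, stood with saline. The other named rises were ND5, encoded by the mitochondrial genome (3.23), RAPGEF3, a cyclic AMP exchange factor (1.83), IPO13, an importin (1.24), PACS2, a sorting protein (1.09) and SMPD4, a sphingomyelinase (1.18).

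RASGRP1, an exchange factor that activates Ras, was among the OTV falls. It had 105, 97.9 and 102 CPM in saline, 138, 128 and 154 in ASO and 23.4, 24.8 and 16.8 in OTV. The OTV animals lay far below all others, at a log2 fold change of -2.18 (SE 0.16) and an edgeR adjusted p of 0.000319. PIGH, a subunit of the enzyme that starts GPI anchors, fell from 431, 482 and 503 CPM to 98.3, 111 and 64.4, by 2.32 on the log2 scale (SE 0.22, edgeR adjusted p 0.000497). PRSS48, a serine protease, fell from 46.3, 57.1 and 38.7 CPM to 5.19, 5.60 and 4.09, by 3.22 (SE 0.28, edgeR adjusted p 0.000469). TRAF3IP2, an adaptor of interleukin 17 signalling, fell by 2.56, the cohesin gene SMC1B by 2.94, the ubiquitin ligase RNF121 by 1.88, ASB14 by 2.48 and PIH1D2 by 2.63, all on the log2 scale.

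**Figure D4:**
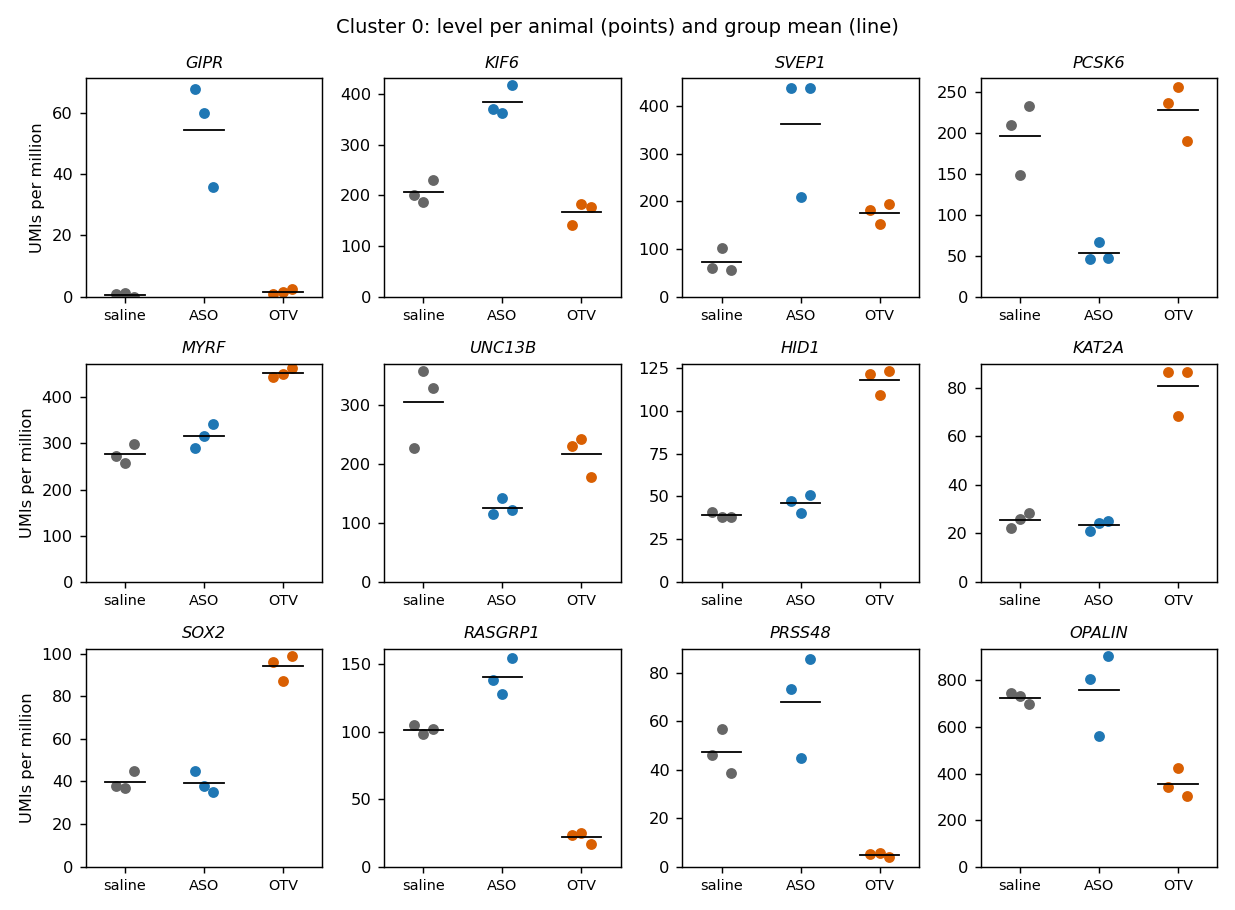
Levels of 12 response genes in cluster 0 in CPM, with 1 point per animal in the saline, ASO and OTV groups and the group mean as a line. GIPR is high in the ASO animals alone (35.9 to 68.0 CPM), and RASGRP1 is low in the OTV animals alone (16.8 to 24.8 CPM).

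The myelin genes moved both ways under OTV. Of 20 tested, 2 rose and 4 fell (30.0% called, against 15.6% of all genes), with a median log2 fold change of 0.06 beside -0.01 over all genes. MYRF, the transcription factor that turns on myelin genes, had 273, 258 and 299 CPM in saline, 291, 317 and 342 in ASO and 443, 451 and 463 in OTV. The OTV animals lay above all others, by 0.76 over saline (SE 0.10, edgeR adjusted p 0.00134). OPALIN, a myelin membrane glycoprotein, had 744, 733 and 700 CPM in saline, 806, 559 and 906 in ASO and 341, 425 and 302 in OTV. It fell by 0.98 on the log2 scale (SE 0.18, edgeR adjusted p 0.00557), with the OTV animals below all others. CNTN2, a contactin beside the node, also rose (0.44). CLDN11, the claudin of myelin tight junctions, fell by 0.80, CD9, a tetraspanin, by 0.77 and MAL, a myelin lipid raft protein, by 0.57. Only OPALIN and MYRF kept their calls in all 15 alternatives. The list counted 1 higher and 1 lower without saline animal 1, 2 higher and 1 lower without OTV animal 3, and 1 higher and 2 lower without saline animal 2 or without OTV animal 2. Under ASO 0 of the 20 passed in edgeR. At an unadjusted p under 0.05 there were 5, all higher, beside 10.5% of all genes. DESeq2 called 1, beside 374 of all 16062 genes.

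Of 18 transcription factors of the lineage tested, SOX2 and MYRF rose and SOX6 fell under OTV (16.7% called, near the 15.6% of all genes). SOX6, which holds back differentiation in precursors, had 72.8, 81.8 and 193 CPM in saline, 26.8, 20.4 and 40.0 in ASO and 41.1, 46.6 and 44.2 in OTV. Its fall of 1.31 on the log2 scale had an edgeR adjusted p of 0.0443 and was lost in 9 of 15 alternatives.

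Genes known from oligodendrocyte subtypes of human brain gave 3 rises and 2 falls of 20 (25% called, beside 15.6% of all genes). NELL1, a secreted glycoprotein, rose from 6.07, 6.37 and 9.68 CPM to 9.96, 25.1 and 16.8, by 1.35 with an edgeR adjusted p of 0.0223. PLXDC2, a plexin domain membrane protein, rose by 1.25 and SVEP1 by 1.3. KCNAB1, an auxiliary subunit of voltage-gated potassium channels, fell from 51.3, 20.4 and 74.0 CPM in saline to 3.53, 6.04 and 6.01 in OTV, with ASO at 14.1, 7.59 and 18.8. Every OTV animal lay below every saline and ASO animal, at a log2 fold change of -3.14 (SE 0.53) and an edgeR adjusted p of 0.00517. The list counted 0 rises without saline animal 1 and 1 without saline animal 2 or any single OTV animal, while its 2 falls were called in each of these. Without OTV animal 3, NELL1, PLXDC2 and SVEP1 all lost their calls, so the rise counted there was another member.

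Nuclear speckle factors, which share the compartment of MALAT1, gave 7 rises and 0 falls of 21 under OTV in edgeR (33.3% called, against 15.6% of all genes), with a median of 0.23 against -0.01 over all genes. DESeq2 called 8 higher and 1 lower, beside 1208 higher and 1665 lower of all 16062 genes. SRRM2, a scaffold of speckles, rose from 245, 247 and 271 CPM to 337, 471 and 534, by 0.86 (SE 0.16, edgeR adjusted p 0.00561), and kept its call in all 15 alternatives. SRRM1, SRSF11, SRSF6, LUC7L3, SON and PNN rose as well. The 7 rises became 1 when only the 6 animals compared were fitted, and 1 without saline animal 1, saline animal 2, OTV animal 2 or OTV animal 3, each left out alone. They were 2 without saline animal 3, 3 without ASO animal 1 and 4 without ASO animal 3.

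Metabolic and transport lists had 0 to 20.0% of their genes called under OTV, beside 15.6% of all genes. Of 15 genes for lactate and glucose supply, PDK1, a kinase that inhibits pyruvate dehydrogenase, rose by 0.85, while PFKM, a phosphofructokinase, fell by 1.76 and LDHB, a lactate dehydrogenase, by 0.64 (20.0% called). Without saline animal 2 only 1 of the 3 was called. SLC1A1, a neuronal and glial glutamate transporter, was the single edgeR call among 25 potassium and glutamate genes (4.00% called), where DESeq2 called 1 higher and 2 lower. It fell from 32.0, 42.8 and 51.2 CPM to 11.6, 15.4 and 12, by 1.62 (SE 0.23, edgeR adjusted p 0.00172). Among 22 laminin and basement membrane genes, LAMB2 and ITGA6 rose by 1.94 and 1.02 and LAMB1 fell by 1.52 (13.6% called), but 0 of these were called without saline animal 1 or without OTV animal 3, and 1 without saline animal 2, OTV animal 1 or OTV animal 2. LAMC3 itself was not called, at 0.14 (SE 0.77, edgeR adjusted p 0.933), and neither were SMIM2, DTHD1 and TMTC1. For SMIM2 this depended on OTV animal 2. It had 132, 102 and 107 CPM in saline and 25.3, 151 and 29.3 in OTV, and was called as lower without that animal (edgeR adjusted p 0.00746). In edgeR, 0 genes passed among 19 of cholesterol synthesis, 13 of stress, 15 of iron handling and 21 of O-mannosylation and cadherins. In the same order, 3, 1, 5 and 1 had an unadjusted p under 0.05, beside 30.2% of all genes. DESeq2 called 1, 1, 1 and 0 of them, beside 2873 of all 16062 genes. TFRC, the transferrin receptor, had 12.8, 15.0 and 13.8 CPM in saline and 17.2, 16.3 and 21.4 in OTV, at 0.44 (SE 0.18) and an edgeR adjusted p of 0.130.

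Of 17 genes of nucleic acid sensing and interferon signalling, 0 rose and 2 fell under OTV in edgeR (11.8% called, beside 15.6% of all genes). At an unadjusted p under 0.05 there were 6 of the 17, 2 of them higher, beside 30.2% of all genes. DESeq2 called 2 higher and 2 lower, beside 2873 of all 16062 genes. B2M, the light chain of MHC class I, was one of the falls, by 1.08 on the log2 scale, with an edgeR adjusted p of 0.0433 that was lost in 10 of 15 alternatives. Under ASO, CD274, the checkpoint ligand PD-L1, was the 1 call of 17 (5.88%, beside 0.286% of all genes), from 2.81, 3.59 and 2.77 CPM in saline to 17.5, 11.6 and 24.9. Its log2 fold change of 2.49 had an edgeR adjusted p of 0.0430 and was lost in 7 of 15 alternatives.

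**Figure D5:**
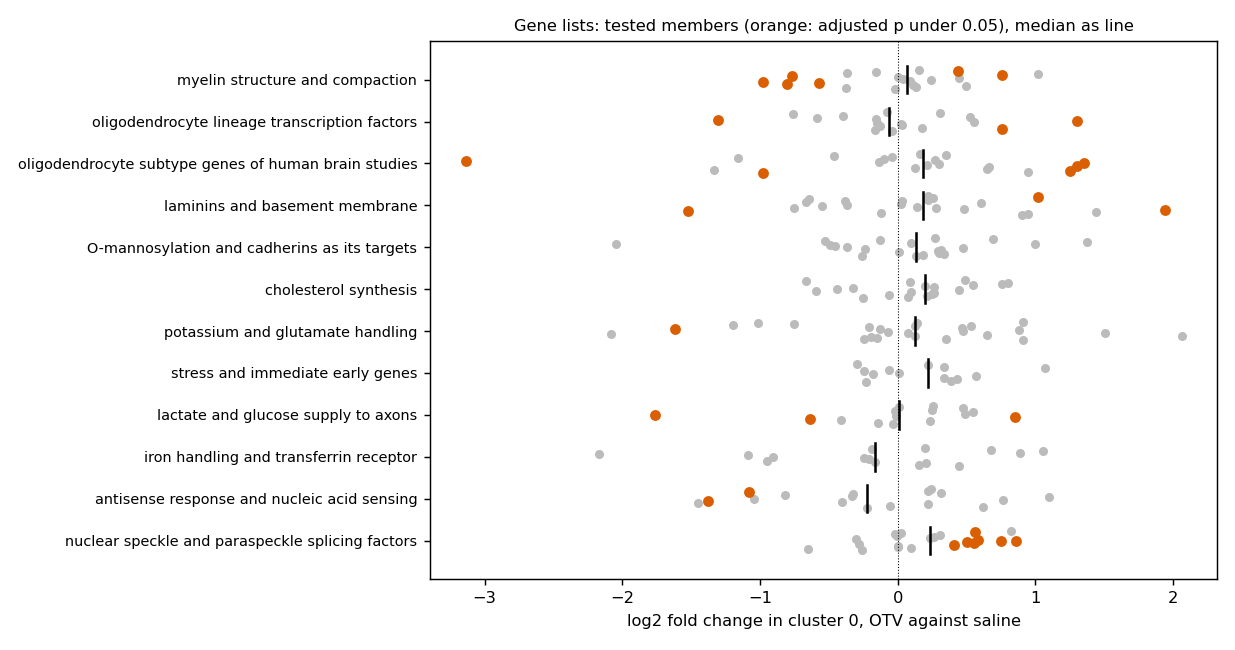
Log2 fold changes of OTV against saline in cluster 0 for the tested members of each gene list, 1 point per gene, orange where the edgeR adjusted p was under 0.05, with the list's median as a line. Speckle factors have 7 rises of 21 and myelin genes 2 rises and 4 falls of 20.

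RNA encoded by the mitochondrial genome, which is foreign to nuclei, followed the groups. Summed over 13 genes it made 282, 127 and 53.3 CPM in saline, 4.03, 7.59 and 5.82 in ASO and 1336, 503 and 774 in OTV. The 3 groups did not overlap. In the fit, 9 of 12 rose and 0 fell in OTV against saline, where 15.6% of all genes were called. Without saline animal 2, 4 rose in OTV. In ASO against saline 0 rose and 6 fell, where 0.286% of all genes were called. The 6 falls became 1 without ASO animal 1, 2 without ASO animal 3, 3 without saline animal 2 or OTV animal 3, 2 with only the 6 compared animals and 0 with thinned counts, and DESeq2 called 12. ND3 had 0 UMIs in each ASO animal. ND5, a subunit of complex I, had 80, 56 and 3 UMIs in saline, 0, 1 and 0 in ASO and 216, 123 and 187 in OTV, and COX1, of complex IV, had 210, 119 and 7, then 12, 32 and 14, then 242, 150 and 187 UMIs. Neuronal markers summed to 86.8 to 547 CPM in saline, 66.9 to 108 in ASO and 83.4 to 115 in OTV. Of 6 neuronal markers tested, 1 was called in OTV against saline (16.7%, beside 15.6% of all genes), and 2 of the 6 had a log2 fold change above 0. The call was GAD1, which makes GABA in neurons and fell by 1.74 on the log2 scale with an edgeR adjusted p of 0.000638. Doublet scores were highest in 2 OTV animals, as given above, and without the 10% of nuclei with the highest scores 2373 genes were called. The part of mitochondrial RNA and neuronal RNA in the treatment responses was not tested.

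OTV against ASO gave the largest count, with 3582 of 16062 genes (22.3%), 1493 higher and 2089 lower in OTV. The count was 2259 without ASO animal 1 and 2378 without OTV animal 3. GET4, a factor of membrane protein insertion, was higher by 1.47, with 162, 135 and 165 CPM in OTV against 52.8, 63.2 and 57.9 in ASO. TELO2, which stabilises PI3-kinase related kinases, was higher by 2.59, with 37.3, 31.3 and 43.5 CPM against 5.58, 7.67 and 6.12. GIPR was lower by -5.12. Of the myelin list 2 were higher and 7 lower in OTV (45.0% of 20), the latter including OPALIN at -1.02, CD9 at -1.27 and CLDN11 at -1.09. UNC13B was higher in OTV than in ASO by 0.85 (SE 0.18, edgeR adjusted p 0.00907). TMTC4, CDH12 and CDH13 were higher among the 21 O-mannosylation and cadherin genes (14.3% called, below the 22.3% of all genes). These 3 became 1 without ASO animal 1 or 2 and with thinned counts, and 0 without ASO animal 3 or OTV animal 2. All 12 mitochondrial genes tested were higher.

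The responses of cluster 0 mostly did not differ from those of the other oligodendrocyte nuclei of the same animals in a test of the difference itself. Of 17615 genes tested, the ASO response against saline differed for 5 (0.0284%), the OTV response against saline for 8 (0.0454%) and the contrast of OTV with ASO for 17 (0.0965%). Since the clusters were made from these genes, treatment could also shift which nuclei joined cluster 0, which was not tested. The difference was also not tested without the nuclei of highest doublet score, which in the OTV animals had a higher median in cluster 0 than in the others. The 5 became 35 without ASO animal 3, 13 without saline animal 1, 11 without saline animal 3, 8 without ASO animal 2 and 9 without OTV animal 1 or 3. The 8 became 20 without OTV animal 2, 17, 15 and 16 without ASO animals 1, 2 and 3, and 4 and 5 without OTV animals 1 and 3. The 17 became 33 without ASO animal 3 and 11 without OTV animal 1.

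Among the named genes, KCNAB1 was the only one whose OTV difference held in all 14 alternatives. In cluster 0 it had the values given above, with 3.53, 6.04 and 6.01 CPM in the OTV animals. The other oligodendrocyte nuclei held 53.8, 16.6 and 65.1 CPM in saline, 14.8, 6.62 and 19.9 in ASO and 8.29, 12.2 and 13.8 in OTV. Cluster 0 was thus close to the others in saline and ASO, and below them in each OTV animal. Cluster 1 alone held 5.58, 16.6 and 6.81 CPM in the OTV animals, so low levels there were not particular to cluster 0. The difference in response was -1.21 on the log2 scale against saline (edgeR adjusted p 0.00126) and -1.14 against ASO (edgeR adjusted p 0.0021).

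KCNH5, another voltage-gated potassium channel gene, held its ASO difference in all 14 alternatives. In cluster 0 it had 145, 67.9 and 152 CPM in saline, 1.80, 2.5 and 13.7 in ASO and 178, 19.0 and 67.6 in OTV. The other oligodendrocyte nuclei held 117, 59.6 and 120, then 3.57, 3.46 and 20.1, then 180, 22.4 and 60.9. Cluster 0 was above these pooled others in each saline animal and below them in each ASO animal. The difference was -0.86 (edgeR adjusted p 2.01e-05). Cluster 1 alone held 165, 86.3 and 125 CPM in saline, so it lay above cluster 0 in saline animals 1 and 2. In the ASO animals it held 5.03, 5.28 and 25.5 CPM.

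LUZP2, which encodes a leucine zipper protein, differed in the other direction under OTV. Cluster 0 had 14.3, 36.6 and 86.4 CPM in saline, 11, 8.50 and 23.0 in ASO and 55.6, 64.7 and 87.5 in OTV, against 44.7, 83.3 and 169, then 29.4, 19.3 and 63.7, then 61.2, 84.0 and 90.5 in the other oligodendrocyte nuclei. The shortfall of cluster 0 was smaller in the OTV animals, at a difference of 1.11 against saline (edgeR adjusted p 0.00356) and 1.19 against ASO (edgeR adjusted p 0.00159). OTOP1, a proton channel, had 62.4, 31.8 and 16.8 CPM in the OTV animals' cluster 0 and at most 4.70 in any saline or ASO animal. The other oligodendrocyte nuclei of the OTV animals held 43.7, 25.5 and 17.8 CPM, so OTOP1 was high in them too. Its difference for OTV against ASO was 1.61 (edgeR adjusted p 0.000464), and against cluster 1 alone it was 0.00 (edgeR adjusted p 1). LAMC3 differed for OTV against ASO by 0.38, with an edgeR adjusted p of 0.0123 that was lost in 4 of 14 alternatives and reached 0.48.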

How the data were processed

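Nuclei were sorted from frozen thalamus and profiled with 10x Genomics chemistry, per the labels' protocols. Per the submitters' processing notes, Cell Ranger 6.1.2 and Seurat 4 were used. Those notes name the human build GRCh38.p13 while 14235 of 29128 features carry cynomolgus Ensembl identifiers, so no coordinates are given. The authors deposited raw UMI counts per feature and nucleus, with an annotation of cell types, clusters and a doublet score per nucleus. The deposited doublet score was used as it stands, and no further nuclei were removed. Barcodes found in 2 or more animals numbered 760 of 79232.

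UMI counts were summed per animal over cluster 0 (1.45 to 25.2 in units of 1e6) and over the other oligodendrocyte nuclei. Treatment responses were fitted with edgeR 4.0.16 in R 4.3.3 (TMM scaling, filterByExpr by group, quasi-likelihood test, p-values adjusted by Benjamini-Hochberg across every gene tested, threshold 0.05) on all 9 animals, so that the 3 contrasts share one estimate of the spread. The difference in response between cluster 0 and the other oligodendrocyte nuclei was an interaction with animal as a block. The comparison of cluster 0 with other clusters used log2(CPM + 1) within each animal, over genes with at least 10 CPM in at least 3 animals, and no test. MALAT1 shares were compared with exact permutation tests in Python 3.11.15 with scipy 1.17.1. The fits were also run on simulated data, and the outcome is not reported here. Alternatives were other scaling, DESeq2 1.42.0, no filter, fewer animals, thinned counts, other reference nuclei, and each animal left out in turn. High doublet scores were left out for the responses and the MALAT1 share, not for the difference in response.

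Named genes had a symbol. They were the given markers, MALAT1, LTBP3 and TFRC, the genes set apart, per contrast up to 8 rising and 8 falling called genes of smallest adjusted p without overlap between groups, up to 5 each way for the difference, and list members. Genes outside this rule are marked where they appear. The members and lists were chosen with earlier results of these data known. Results for some named genes are not reported here. Intervals cover counting error only.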

Additional observations from a re-analysis of the deposited data

Results flagged for a closer look

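A test of the difference between the response of cluster 0 and that of the other oligodendrocyte nuclei passed an edgeR adjusted p of 0.05 for 5 genes under ASO against saline, 8 under OTV against saline and 17 under OTV against ASO. Given here, on the log2 scale, are the 22 of these that the rule named, which took genes with a symbol and at most 5 in each direction. Positive values mean a higher response in cluster 0.

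For ASO against saline, the matrix gene SVEP1 differed by 0.37, the potassium channel gene KCNH5 by -0.86, WWC2 by -0.50, the transcription factor gene ZBTB46 by -1.18 and C11orf80 by -0.47. KCNH5 alone of these 5 passed in every alternative.

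For OTV against saline, LUZP2 differed by 1.11, the potassium channel gene KCND2 by 0.50, the mannosidase gene MAN1A1 by 1.12, the channel subunit gene KCNAB1 by -1.21, utrophin (UTRN) by -0.87, L3MBTL4 by -2.01 and C11orf80 by -0.48. KCNAB1 alone of these 7 passed in every alternative. L3MBTL4 had 4.36, 5.82 and 3.85 CPM in the cluster 0 of the OTV animals and 28.2, 8.97 and 19.0 in the other oligodendrocyte nuclei, while cluster 1 alone held 2.72, 2.53 and 2.68.

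For OTV against ASO, the proton channel gene OTOP1 differed by 1.61, LRRC3B by 2.54, LUZP2 by 1.19, KCNH5 by 0.61, PID1 by 0.64, FMO5 by -0.50, EYA1 by -0.80, KCNAB1 by -1.14, the potassium chloride cotransporter gene SLC12A7 by -1.89 and SFMBT2 by -0.60. KCNAB1 alone of these 10 passed in every alternative. LRRC3B was low throughout, at 0.247 to 3.36 CPM in cluster 0, and EYA1 is one of the genes higher in clusters 1 and 2 than in cluster 0.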

How the results depend on the processing

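Against 46 called genes for ASO against saline in cluster 0, DESeq2 called 374, no filter on low counts gave 78, fitting only the 6 compared animals 24 and thinning to equal totals 16, with 6 to 55 when each animal was left out in turn. For OTV against saline (2503), the 6 animals gave 1626, thinning 1126 and leaving out an animal 1406 to 2422. For OTV against ASO (3582), thinning gave 1592 and leaving out an animal 2259 to 3886. Differences in response from the other oligodendrocyte nuclei numbered 12 against cluster 1 alone, 76 without the filter and 4 to 35 over animals left out for ASO (5), 123 without the filter, 5 thinned and 4 to 20 for OTV against saline (8), and 46 against cluster 1 alone, 147 without the filter and 11 to 33 for OTV against ASO (17). Genes 2-fold higher in cluster 0 (0) numbered 2 against cluster 1 alone and 1 at a threshold of 0.25 on the log2 scale. Genes 2-fold lower (5) numbered 3 by means over nuclei, 8 against cluster 1 alone, 2 with a pseudocount of 5 CPM, 19 and 46 at thresholds of 0.5 and 0.25, which were chosen after seeing the data, and 5 to 14 over animals left out. The exact permutation p for the spread of MALAT1 between nuclei ran from 0.0214 to 0.725 over animals left out, and that for the MALAT1 share from 0.00357 to 0.0393. Against cluster 1 alone, 4 values changed sign: the OTV difference of L3MBTL4, which became 0.63, and the cluster 0 differences of THSD7B (0.12), SDK2 (0.35) and RELL1 (0.50). The cause was not tested. The share of calls that were higher was 45.7% for ASO and 11.1% without saline animal 1, 30.9% without saline animal 3, 62.5% without ASO animal 2 and 66.7% without ASO animal 1. For OTV against saline it was 40.8%, and 29.3% without saline animal 1. Of the values for single genes, 2973 kept their side of the threshold or stayed within the spread, 428 lost their call, 5 gained one and 30 values with no test moved by more than the spread. No paired analysis was possible because the animal numbers do not link animals across groups. Saline animal 3, with 327 nuclei, limits what can be seen of low genes in saline.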
